A study of Mus musculus with 2 samples.

Results

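Cycling macrophages of the mouse heart were described in 2 Drop-seq libraries, a droplet method that counts the transcripts of single cells as unique molecular identifiers (UMIs). A cell was counted as a cycling macrophage when at most 25% of its UMIs were mitochondrial, Ctss, Cd68, Csf1r, C1qa, C1qb and C1qc together made at least 0.2% of its UMIs, Col1a1, Col1a2 and Col3a1 together made less than 1.5%, and Mki67, Top2a, Cenpf, Birc5 and Ube2c together had at least 3 UMIs. These limits chose 414 of 14892 cell barcodes, 345 in the library labelled MI and 69 in the library labelled Sham. The MI library came from 1 heart of a male C57BL6/J wild-type mouse whose left anterior descending artery had been tied off 14 days earlier. The sham library pooled 4 hearts of the same strain and sex, collected 14 days after the same operation with the suture left loose, and the mice were 8 to 10 weeks old when operated on. With 1 library a condition there is no replicate check and no test between conditions. A difference between the libraries cannot be told apart from a difference between these particular hearts or preparations, and cells of 1 library are not replicates. Intervals in parentheses are exact 95% intervals and cover counting error only.

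Macrophages of the heart include resident cells that renew by dividing in place and cells that arise from blood monocytes, and after infarction monocytes enter the tissue in large numbers and can divide there. A dividing cell first makes the helicase, polymerase and nucleotide enzymes of DNA replication, then the histones that pack the new DNA, and last the cyclins, kinesins and spindle proteins of mitosis. Csf1r, the receptor for the growth factor M-CSF, is the best known survival and division signal of macrophages.

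The members were compared with macrophages of the same limits and 0 UMIs of the 5 cycle genes, here called 0-UMI macrophages, which numbered 3110 in MI and 1472 in sham. A further 550 macrophages in MI and 97 in sham had 1 or 2 such UMIs and stood in neither group. Just outside the limit, 82 MI and 12 sham macrophages had 2 cycle UMIs, and just inside it 40 MI and 8 sham macrophages had 3. The median total was 2595 UMIs in cycling against 1608 in 0-UMI macrophages of MI, and 2464 against 1374 in sham, so the cycling cells were the deeper group in both libraries. A minimum of 3 UMIs is itself passed more often by deeper cells. Both libraries held 5 barcodes in common. Scrublet, which scores simulated pairs of cells, marked 6 of 345 cycling and 23 of 3110 0-UMI macrophages as doublets in MI, and 2 of 69 and 166 of 1472 in sham. Barcodes that end in an undetermined base made up 13 of the 345 and 43 of the 3110 in MI, and 18 of the 69 and 138 of the 1472 in sham.

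The members were checked against macrophage genes outside the limits. At least 3 UMIs of 13 further macrophage markers were found in 340 of 345 cycling cells of MI and 69 of 69 of sham. In cells of the same libraries gated on lymphocyte markers, which were shallower, they were found in 43 of 142 and 12 of 44. This gate took cells with at least 0.5% of UMIs from T, natural killer and B cell markers and collagens below 1.5%. It also required under 0.2% of the 6 macrophage genes of the limits. Low levels of macrophage markers in the lymphocyte-gated cells are thus partly set by the gate. Emr1 (F4/80), a surface receptor of macrophages, had a UMI in 90 (26.1%) MI and 25 (36.2%) sham members. It was at 108 and 203 CPM (UMIs scaled to the same total in every group) in the members of MI and sham, against 4.41 CPM and 0 UMIs in the lymphocyte-gated cells. Ms4a7, a membrane protein of macrophages, was at 963 and 481 CPM against 35.3 CPM and 0 UMIs. Among genes of the limits themselves, Csf1r had a UMI in 154 (44.6%) MI and 39 (56.5%) sham members, and a gene of C1qa, C1qb and C1qc in 338 and 69. Endothelial markers reached 0.3% of UMIs in 3 of 345 MI members and in 0 of 69 sham members, which allows a share of up to 4.35% if 3 cells are taken as the limit of a count of 0. Lymphocyte markers reached 0.5% in 2 MI and 0 sham members, and fibroblast genes outnumbered the 19 macrophage genes found in the tables in 9 MI members and 1 sham member. At a lower bar RNA of other cell types was common. At least 3 collagen UMIs were found in 183 (53.04%) MI members and 1 sham member, and in 57.7% of the lymphocyte-gated cells of MI. At least 3 UMIs of other fibroblast markers were in 151 (43.8%) MI and 8 (11.6%) sham members. Endothelial markers reached 3 UMIs in 15 (4.35%) MI and 12 (17.4%) sham members.

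The 5 genes that chose the members serve different steps of division. Mki67 encodes the coat protein of mitotic chromosomes, Top2a the enzyme that untangles DNA, Cenpf a kinetochore protein, Birc5 (survivin) a subunit of the chromosomal passenger complex, and Ube2c the ubiquitin-conjugating enzyme of the anaphase-promoting complex. Mki67 had a UMI in 314 of 345 (91.0%) MI members and 60 of 69 (87.0%) sham members. Top2a had one in 282 (81.7%) and 63 (91.3%), Cenpf in 225 (65.2%) and 44 (63.8%), Birc5 in 231 (67.0%) and 38 (55.1%), and Ube2c in 115 (33.3%) and 20 (29.0%) of the MI and sham members. The selection rested on several genes in most cells, since only 14 MI and 5 sham members reached 3 UMIs through 1 gene, and 73 (21.2%) and 14 (20.3%) held UMIs of all 5. Members had a median of 11 cycle UMIs in MI (quartiles 5 and 21, highest 93) and 10 in sham (quartiles 6 and 22, highest 51). The UMIs were unevenly spread, with 68 of the 345 MI members and 16 of the 69 sham members holding 50% of them.

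The letters before the start sites of these genes are shown because they hold the motifs through which cycle genes are known to be timed, namely the CHR element (TTTGAA or TTCGAA) and the CCAAT box (CCAAT) of late cycle genes and the E2F site (TTTCCCGC, TTTGGCGC, TTTCGCGC or TTTGCCGC) of replication genes. Each line gives the 150 bases before the annotated start, read 5′ to 3′ on the gene's strand, from RefSeq on GRCm38.p6, with matches to these motifs on either strand in capitals. The windows lie at chr7:135716380-135716529 on the minus strand (Mki67), chr11:99024190-99024339 on the minus strand (Top2a), chr1:189688087-189688236 on the minus strand (Cenpf), chr11:117849087-117849236 on the plus strand (Birc5), chr2:164769779-164769928 on the plus strand (Ube2c) and chr1:128359706-128359855 on the minus strand (Mcm6, a subunit of the replicative helicase, a replication gene chosen for comparison after its matches were seen).
Mki67: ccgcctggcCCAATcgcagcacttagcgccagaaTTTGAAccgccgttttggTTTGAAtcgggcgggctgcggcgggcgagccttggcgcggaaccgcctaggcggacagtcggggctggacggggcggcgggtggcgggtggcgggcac
Top2a: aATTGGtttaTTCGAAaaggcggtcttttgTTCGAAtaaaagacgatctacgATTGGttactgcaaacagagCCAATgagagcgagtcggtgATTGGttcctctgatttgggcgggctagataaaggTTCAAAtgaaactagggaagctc
Cenpf: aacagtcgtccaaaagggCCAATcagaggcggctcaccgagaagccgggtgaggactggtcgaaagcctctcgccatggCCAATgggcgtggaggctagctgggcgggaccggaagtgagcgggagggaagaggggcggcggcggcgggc
Birc5: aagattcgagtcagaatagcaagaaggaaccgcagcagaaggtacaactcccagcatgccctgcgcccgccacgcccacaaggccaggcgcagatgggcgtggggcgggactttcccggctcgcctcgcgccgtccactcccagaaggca
Ube2c: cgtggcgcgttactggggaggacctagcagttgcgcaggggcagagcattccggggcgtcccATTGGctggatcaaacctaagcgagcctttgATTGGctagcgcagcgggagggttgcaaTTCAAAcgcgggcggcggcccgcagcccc
Mcm6: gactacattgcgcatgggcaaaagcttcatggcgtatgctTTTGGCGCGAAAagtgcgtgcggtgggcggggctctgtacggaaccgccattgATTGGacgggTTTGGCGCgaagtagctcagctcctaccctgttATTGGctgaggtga
Mki67 held 2 CHR elements and 1 CCAAT box in this window, Top2a held 3 and 4, and Ube2c held 1 and 2. Cenpf held 2 CCAAT boxes and no CHR element, and Birc5 held none of the motifs. Mcm6 held 3 E2F matches, of which a pair overlap on opposite strands, and 2 CCAAT boxes. Over the 250 bases before the start, 15 of 39 matched mitosis genes (38.5%) held a CHR element and 30 (76.9%) a CCAAT box, against 17.4% and 34.5% of all 27025 genes. Of 25 matched replication genes, 5 (20%) held a CHR element and 15 (60%) a CCAAT box. A CCAAT box also lay in 4 of 5 matched MHC class II genes, so it was not particular to mitosis genes. An E2F site lay in 6 of 25 matched replication genes (24%), against 2 of the 39 mitosis genes (5.13%) and 1.91% of all genes. The histone genes of the list had no entry in the promoter table. A match of letters is a description and not a measured site.

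Cycling cells made up 345 of 4005 macrophages in MI, or 8.61% (7.76% to 9.53%), and 69 of 1638 in sham, or 4.21% (3.29% to 5.30%). The log2 ratio of MI over sham was 1.03 (0.66 to 1.43), and the 2 intervals did not overlap. After each cell was thinned to 500 UMIs, at least 3 cycle UMIs remained in 4.37% of MI and 2.08% of sham macrophages, and at least 1 remained in 11.8% and 6.04%. At 1000 UMIs a cell, with 489 MI and 331 sham macrophages too shallow to enter, the shares with at least 3 were 6.80% and 3.52%. The MI share was thus the higher at either fixed depth. Within bins of depth the MI share was also the higher in 5 of 6 bins, although the intervals overlapped in all but the second. Among macrophages of 1000 to 1500 UMIs it was 5.18% (3.96% to 6.64%) of the MI cells and 1.74% (0.839% to 3.18%) of the sham ones. Among those of 2000 to 3000 UMIs the order turned, with 7.88% (6.24% to 9.79%) in MI and 8.92% (5.80% to 12.98%) in sham. The cycling share was highest in the deepest cells of MI, at 42 of the 100 macrophages with 5000 or more UMIs, while sham had 2 of 18.

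**Figure D1:**
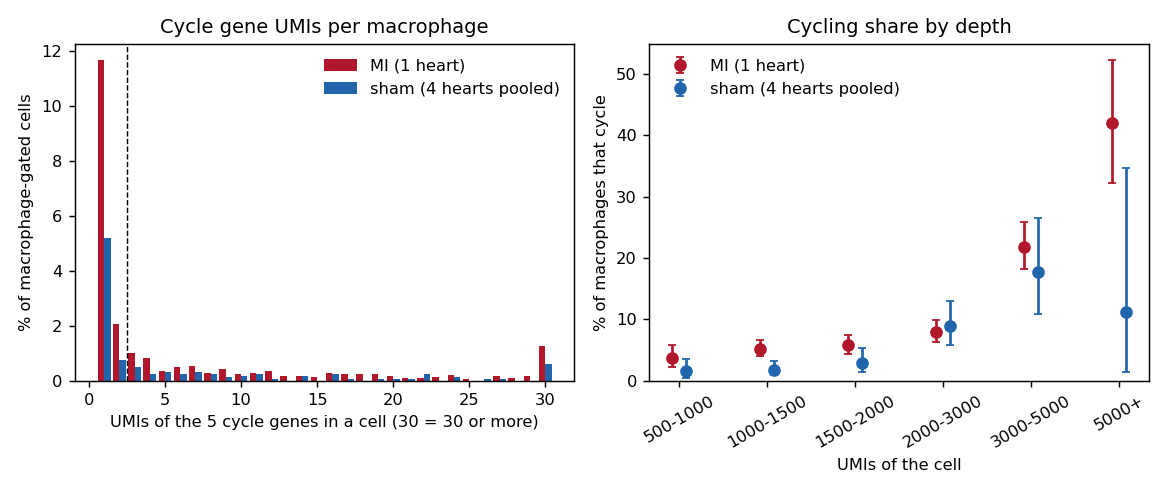
Left, the share of macrophages (percent, vertical axis) with each number of UMIs of the 5 cycle genes in MI (red) and sham (blue), with the limit of 3 UMIs as a dashed line and cells with none left off. Right, the share of macrophages that cycle by the total UMIs of the cell, with exact 95% intervals; the share was 3.68% in MI and 1.51% in sham below 1000 UMIs and 21.8% and 17.6% at 3000 to 5000 UMIs.

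Other cell types of the same libraries give the setting of this share. The endothelial gate took cells with at least 0.3% of UMIs from Pecam1, Cdh5, Kdr, Emcn, Egfl7 and Esam and collagens below 1.5%. The fibroblast gate took cells with collagens of at least 1.5%. Both gates, like the lymphocyte gate, required under 0.2% of the macrophage genes of the limits. In MI, 9.95% of endothelial-gated and 4.93% of lymphocyte-gated cells had at least 3 cycle UMIs, as had 521 of 3162 (16.5%) fibroblast-gated cells. These cells differed in depth, with medians of 3490 UMIs in endothelial-gated, 1280 in lymphocyte-gated and 5299 in fibroblast-gated cells. In sham the shares were 4.36% of endothelial-gated, 4.55% of lymphocyte-gated and 0 of 104 fibroblast-gated cells, the last of which allows up to 2.88% on the same limit of 3 cells. The fibroblast gate held only those 104 of 6303 sham cells, with a median collagen share of 1.76%, against 4.52% in MI. The 0 therefore does not describe sham fibroblasts with less collagen RNA. At 500 UMIs a cell, at least 3 cycle UMIs were found in 4.37% of macrophages, 2.74% of endothelial-gated, 2.11% of lymphocyte-gated and 3.32% of fibroblast-gated cells of MI. At least 1 was found in 11.8%, 11.4%, 7.75% and 12.6% of them, so fibroblast-gated cells stood below macrophages by the first measure and above them by the second.

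The cycling macrophages carried the programme of all phases of division. The comparison sums UMIs over the cells of a group and takes the log2 ratio of CPM, cycling over 0-UMI. Since the members were selected on cycle genes, the higher level of other cycle genes describes the cells and is no test. A gene counts as measured when at least 10 UMIs were expected in each group at the share pooled over both groups. A gene nearly absent from the larger 0-UMI group can thus miss this limit although many members hold it. Genes count as higher or lower when the ratio passed 2-fold. In MI, 6.37% of 8070 measured genes were higher (514 genes) and 4.54% lower (366 genes) in the cycling cells. In sham, where the group is smaller, 4.46% of 2892 were higher (129 genes) and 6.95% lower (201 genes). The median over all measured genes was -0.04 in MI and -0.09 in sham.

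Replication genes came to 2646 CPM (2548 to 2748) in cycling against 486 CPM (468 to 504) in 0-UMI macrophages of MI, summed over 30 genes. In sham the sums were 3925 CPM (3635 to 4232) and 559 CPM (529.5 to 590.3). All 25 measured members were higher in MI, with a median log2 ratio of 2.49, and 4 of 4 measured were higher in sham. Pcna, the sliding clamp of DNA polymerases, was at 394 CPM in cycling and 110.2 CPM in 0-UMI cells of MI, and at 533 and 101 CPM in sham. Mcm6 and Rrm2 fell short of the pooled minimum in sham and did not count as measured there. Mcm6, whose E2F matches are shown above, was at 94.3 against 19.02 CPM in MI and 151 against 35.2 CPM in sham. Rrm2, the small subunit of the enzyme that makes deoxyribonucleotides, was at 146 against 3.11 CPM in MI and 116 against 0.424 CPM in sham. Replication genes were therefore detected at some level in the 0-UMI macrophages too, and in both libraries the median ratio of the list was smaller than those of the histone and mitosis lists, over 4, 12 and 5 measured genes in sham.

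Replication-dependent histones, which package newly made DNA, had the highest summed CPM of the phase lists. Their sum was 13114 CPM (12894 to 13337) in cycling against 776 CPM (753 to 799) in 0-UMI macrophages of MI, and 13352 CPM (12812 to 13908) against 854 CPM (817 to 892) in sham. All 25 measured histone genes were higher in MI, with a median log2 ratio of 4.36, and 11 of 12 in sham, where Hist1h2bc was the exception at -0.31. Hist1h2ap had 2245 CPM (2154 to 2338) in cycling and 52.4 CPM (46.7 to 58.6) in 0-UMI macrophages of MI, and 1948 CPM (1745 to 2168) and 32.6 CPM (25.7 to 40.8) in sham. It had a UMI in 215 of 345 MI and 43 of 69 sham members, against 252 of 3110 and 68 of 1472 0-UMI cells. The Hist1h2a genes are near-identical copies, so the split of reads among them is uncertain. The list leaves out the copies Hist1h2ad, Hist1h2ah and Hist1h2ai. How reads shared by copies were counted is not stated, so the sum and the counts of genes are uncertain too.

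Genes of G2 and mitosis had the largest median ratio of the phase lists in MI. The list of 48 genes, none of them among the 5 that chose the cells, summed to 11288 CPM (11084 to 11495) in cycling against 687 CPM (666 to 709) in 0-UMI macrophages of MI, and to 10650 CPM (10168 to 11148) against 586 CPM (555 to 617) in sham. In MI 41 of 42 measured members were higher, with a median log2 ratio of 4.85, and in sham 4 of 5, with a median of 2.99. The histone median in sham was 5.46. These sham medians do not rank the lists, since mitosis genes nearly absent from 0-UMI cells could fail to count as measured. Nusap1, a microtubule-binding spindle protein, had 469 CPM (428 to 512) in cycling against 5.88 CPM (4.07 to 8.22) in 0-UMI macrophages of MI, and 475 CPM (378 to 590.1) against 2.54 CPM (0.933 to 5.53) in sham. It had a UMI in 171 of 345 MI and 37 of 69 sham members. Aspm, which organises spindle poles, gave the largest ratio of the named MI genes, with 151 against 1.21 CPM and a log2 ratio of 6.96 (5.88 to 8.30). Prc1, which bundles microtubules of the spindle midzone, reached 6.04 (5.60 to 6.51), Hmmr, a spindle assembly factor, 5.93 (5.49 to 6.41), and Kif11, the kinesin that separates spindle poles, 6.17 (5.48 to 6.95). In sham the kinetochore kinesin Cenpe stood first among the 5 mitosis genes measured there, at 864 against 13.98 CPM and 5.95 (5.40 to 6.54). Nusap1 did not count as measured in sham, with 82 UMIs in the members and 6 in the 0-UMI cells. Pttg1 (securin), which holds back separase until anaphase, was the exception in both libraries, at 0.11 (-0.34 to 0.53) in MI and -0.37 (-1.52 to 0.59) in sham.

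Chromatin and tubulin genes that dividing cells use in quantity were also higher in both libraries. Of the measured members 22 of 22 were higher in MI, with a median log2 ratio of 2.01, and 18 of 18 in sham, with 1.91. Stmn1 (stathmin), which destabilises microtubules, was at 564 CPM in cycling and 28.7 CPM in 0-UMI macrophages of MI, and at 1061 and 34.3 CPM in sham. H2afz, a histone variant made outside S phase as well, was at 1059 against 303 CPM in MI and 1015 against 234 CPM in sham. Fibroblast-gated cells of MI with at least 3 cycle UMIs held less of each list, in CPM, than the cycling macrophages of MI. Their sums were 1938 CPM for replication genes, 6871 for histones and 8434 for mitosis genes. These fibroblasts were deeper, with a median of 7269 UMIs, so that 3 cycle UMIs are a smaller share of their total.

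**Figure D2:**
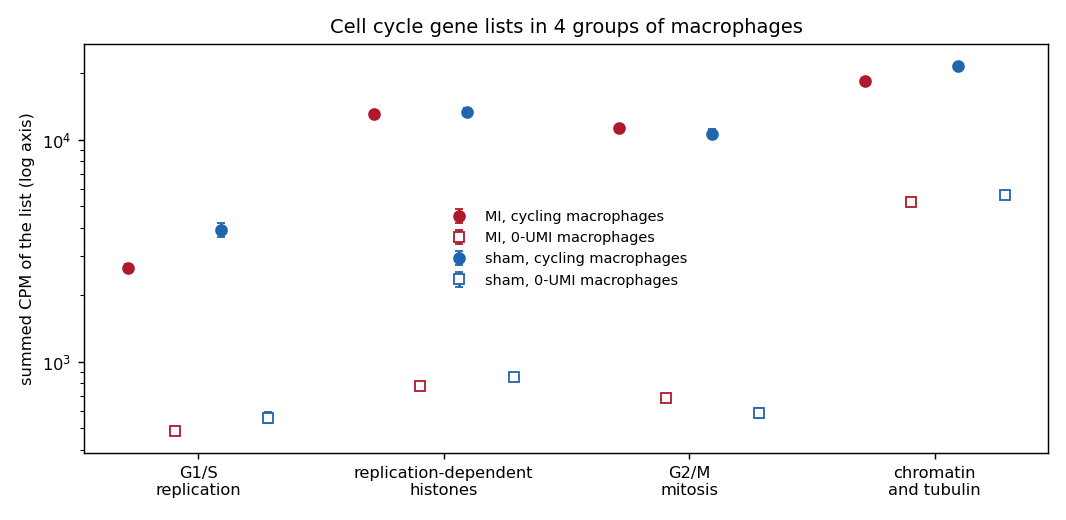
Summed CPM (log axis) of 4 cell cycle lists in cycling (filled circles) and 0-UMI (open squares) macrophages of MI (red) and sham (blue), with exact Poisson 95% intervals. In each list both cycling groups lie above both 0-UMI groups, and for mitosis genes the values are 11288 and 10650 CPM against 687 and 586 CPM.

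The members fell into 4 classes by their share of histone and of mitosis UMIs, and the intervals of the libraries overlapped in each class. Histones and mitosis genes each made at least 1% of UMIs in 97 (28.1%, 23.4% to 33.2%) MI members and 20 (29.0%, 18.7% to 41.2%) sham members. Histones alone passed 1% in 56 (16.2%) and 14 (20.3%), mitosis genes alone in 94 (27.2%) and 12 (17.4%), and neither in 98 (28.4%) and 23 (33.3%) MI and sham members. Cells with neither had a median of 4 cycle UMIs in MI and 5 in sham, so they lay near the limit. Cdc20, the activator of the anaphase-promoting complex, had a UMI in 100 of 345 MI and 18 of 69 sham members. It was found in 52.1% of MI members with mitosis genes alone and in 12.5% of those with histones alone. In sham these shares were 50% of 12 and 28.6% of 14 cells. Cdc20 is itself a gene of the mitosis list, so its order between these classes is partly set by how they were made. Across the members of a library, shares of replication and of mitosis genes gave a Spearman's rho of -0.37 over 345 MI cells and -0.38 over 69 sham cells. Histones and mitosis genes ran together instead, with 0.19 in MI and 0.42 in sham, and replication genes and histones gave 0.33 and 0.06. These are descriptions across cells of 1 library, whose shares come from the same UMI totals.

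Genes that admit a cell to the cycle or hold it back gave smaller and mixed ratios. D cyclins, E2F factors and G1 kinases summed to 727 against 394 CPM in cycling and 0-UMI macrophages of MI, and to 748 against 768 CPM in sham. Cdk4, the partner of D cyclins, was at 138 against 73.5 CPM in MI and at 128 against 57.2 CPM in sham. Rbl1 (p107), a pocket protein that is itself an E2F target, was at 70.98 against 9.68 CPM in MI. In sham it did not count as measured, at 46.4 against 11.4 CPM. Ccnd1 (cyclin D1) was at 139 against 99.4 CPM in MI and at 215 against 372 CPM in sham. Inhibitors of cyclin-dependent kinases and p53 targets summed to 1023 CPM (962 to 1087) against 1410.3 CPM (1379.8 to 1441) in MI and to 1577 CPM (1395 to 1776) against 1269 CPM (1224 to 1315) in sham, so the order of the sums differed between the libraries. The median log2 ratio of the list was -0.46 over 12 measured genes in MI. In sham it was the value of Btg1, -0.34 (-0.97 to 0.23), among 7 measured genes, and 8 of 12 alternatives put it above 0. Cdkn2c and Cdkn2d, inhibitors of the kinases CDK4 and CDK6, were higher in the cycling cells of MI, at 85.6 against 12.1 CPM and 109.9 against 26.6 CPM. In sham they did not count as measured, at 139 against 17.4 CPM and 122 against 15.7 CPM. Gadd45b, a stress-induced gene, and the antiproliferative genes Btg1 and Btg2 were the lower members in MI, with log2 ratios of -1.75 (-2.20 to -1.33), -1.10 (-1.35 to -0.85) and -1.05 (-1.27 to -0.84). Cdkn1a (p21), the p53-induced inhibitor, was at 194 CPM (168 to 223) in cycling and 248 CPM (235 to 261) in 0-UMI macrophages of MI, and at 609 CPM (498 to 737) and 282 CPM (261 to 304) in sham. A Cdkn1a UMI was present in 127 of 345 MI and 42 of 69 sham members, against 889 of 3110 and 368 of 1472 0-UMI cells, and no sham cycling cell held more than 7.62% of the Cdkn1a UMIs of its group. Among cycling cells the log2 ratio of MI over sham for Cdkn1a was -1.65 (-1.99 to -1.29).

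MHC class II genes, which present antigen to CD4 T cells, had the lowest median ratio of the macrophage lists in MI. In MI all 8 measured members were lower, with a median log2 ratio of -1.43, and the sum was 2642 CPM (2543 to 2743) in cycling against 7405 CPM (7335 to 7475) in 0-UMI macrophages. In sham the sum was 8059 CPM (7640.4 to 8494) against 15809 CPM (15649 to 15969.9), 6 of 6 measured members had a ratio below 0, and 2 passed 2-fold. H2-Ab1, a chain of the antigen-presenting dimer, was at 793 CPM (739.9 to 849.7) against 2253 CPM (2215 to 2292) in MI and at 1838 CPM (1641 to 2052) against 3618 CPM (3542 to 3696) in sham. H2-Eb1 was at 626 against 1874 CPM in MI and 1559.5 against 3089.5 CPM in sham. Cd74, the invariant chain, was at 488 against 1283 CPM in MI and 2841 against 5941 CPM in sham. A Cd74 UMI was found in 85 of 345 MI members and 1264 of 3110 MI 0-UMI cells, although the members were deeper. Dendritic cell markers also ran lower, with sums of 100.1 against 203 CPM in MI and 197 against 339 CPM in sham. At least 3 of their UMIs were found in 10 of 345 members and 111 of 3110 0-UMI macrophages of MI and in 2 of 69 and 68 of 1472 of sham, and the part of such cells in the MHC class II values was not tested. Cd209a, a dendritic cell marker, had 0 UMIs in the MI members against 81 in the 0-UMI macrophages, which puts its log2 ratio at or below -2.26 with 3 UMIs taken as the level of the cycling group. Il1b, the inflammatory cytokine, was at 60.3 against 323 CPM in MI, a log2 ratio of -2.42 (-2.81 to -2.06). Igha, an antibody heavy chain of plasma cells, and Ifitm1, an interferon-induced membrane protein, had the lowest ratios of the named MI genes at -4.53 and -3.21, on 2 and 7 UMIs in the members.

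General macrophage genes were present in the members but made a smaller part of their UMIs. The summed levels of the 6 genes that chose the cells were 9269.5 against 12154 CPM in MI and 10372 against 14132 CPM in sham. Other macrophage markers had a median log2 ratio of -0.58 in MI and -0.33 in sham. Apoe, the lipid carrier, was at 12395 against 23862 CPM in MI and 6470.0 against 12630.2 CPM in sham. Mertk, the receptor for engulfing dead cells, was at 119.6 against 259.9 CPM in MI and 81.2 against 164 CPM in sham, and passed 2-fold in both. Cx3cr1, the fractalkine receptor, ran the other way, at 483 against 341 CPM in MI and 383 against 256 CPM in sham. Csf1r itself was at 251 against 361 CPM in MI and 394 against 644 CPM in sham, but it is a gene of the limits. Among regulators of macrophage self-renewal, Maf was at 989 against 1185 CPM in MI and 2069.7 against 2604 CPM in sham, and Klf4 at 79.7 against 138 CPM and 186 against 394 CPM. Both had ratios below 0 in both libraries, and the ratio of Klf4 was -0.79 (-1.13 to -0.46) in MI and -1.09 (-1.64 to -0.58) in sham.

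Immediate early genes, which cells switch on within minutes of stimulation or handling, were below the 0-UMI level for 11 of 12 measured members in each library. Past 2-fold, 7 were lower in sham and 1 in MI. Fos was at 451 against 707 CPM in MI and at 412 against 975 CPM in sham. Egr1 was at 71.9 against 156 CPM in MI and at 342 against 882 CPM in sham, and passed 2-fold in both libraries. Hsp90aa1, a chaperone, was the member that was higher, at 1.17 (1.05 to 1.29) in MI and 1.15 (0.93 to 1.36) in sham.

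Collagens, held below 1.5% of UMIs by the limits, summed to 1234 CPM in cycling and 1858 CPM in 0-UMI macrophages of MI, and to 116 and 395 CPM in sham. Fibroblast markers outside the limits summed to 1105 against 1335 CPM in MI and 806 against 2279 CPM in sham, where all 4 measured were lower. In sham several of the lowest genes were ones that fibroblasts or other stromal cells express. Gsn (gelsolin) was at 284 against 882 CPM and Dcn (decorin) at 296 against 803 CPM. Scrublet marked 166 of the 1472 sham 0-UMI macrophages, and without marked cells the sham log2 ratios were 0.22 for Gsn and 0.74 for Dcn, opposite in sign to the values with them. A cell held 55.1% of the Gsn UMIs of the sham members, and a cell held 70.6% of their Dcn UMIs. Retnla, an alternative activation gene with close paralogs, was at 267 against 1208 CPM, and a cell held 84.8% of its UMIs among the members. These sham values therefore rest on few cells. Klf2, a transcription factor of quiescent leukocytes, was at 81.2 against 408 CPM in sham.

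The remaining macrophage lists gave mixed counts. Chemokines had 0 of 12 measured members past 2-fold in MI, with a median log2 ratio of -0.06, and 2 lower of 10 in sham, Ccl8 and Ccl12. Receptors and ligands of macrophage growth had a median of -0.55 in MI, where Il10ra, Il13ra1 and Csf2rb2, receptor chains for IL-10, IL-13 and the GM-CSF family, were the 3 lower members of 11. Csf2ra, the GM-CSF receptor chain, was at 126 against 185 CPM in MI and 174 against 209 CPM in sham. Genes of inflammatory monocytes had 6 of 11 measured members lower in MI, among them Plac8 at 22.4 against 90.6 CPM. S100a4, a calcium-binding protein of motile cells, ran the other way, at 615 against 476 CPM in MI and 545 against 229.6 CPM in sham. Glycolysis genes had medians of 0.19 in MI and 0.02 in sham with 0 past 2-fold in either, against medians over all genes of -0.04 and -0.09. Ribosomal protein genes summed to 95443 against 113564 CPM in MI and 84864 against 93133 CPM in sham.

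Genes measured in both libraries numbered 2861. Of these, 93 were higher in the cycling cells of both, which is 93 of the 130 higher in MI and of the 129 higher in sham. The 2 comparisons share no cells. Lower in both were 17 genes, out of 60 lower in MI and 191 lower in sham, and they included Cd74, H2-DMa, Mertk, Egr1, Btg2, an inhibitor of proliferation, and Clec10a, a lectin of alternatively activated macrophages. Ablim1 and Pecam1 were the 2 genes past 2-fold in opposite directions. Pecam1, an endothelial marker, was at 31.1 against 11.9 CPM in MI and at 17.4 against 61.9 CPM in sham, in 13 MI and 2 sham members.

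**Figure D3:**
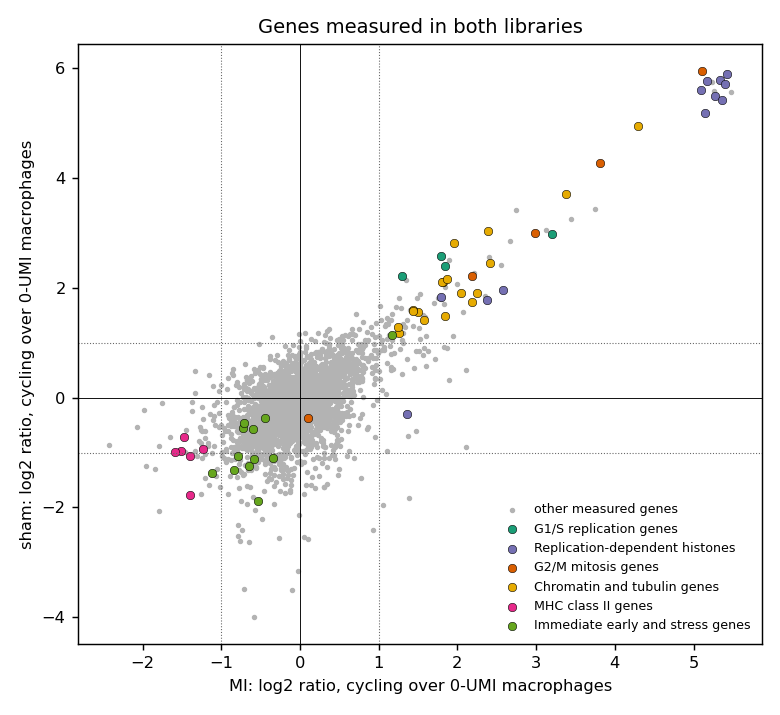
Log2 ratio of cycling over 0-UMI macrophages in MI (horizontal axis) and in sham (vertical axis) for 2861 genes measured in both, with gene lists coloured and dotted lines at 2-fold. Apart from Hist1h2bc and Pttg1, most histone, mitosis and chromatin genes lie at the upper right, with 93 genes past 2-fold in both, and MHC class II genes at the lower left.

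The cycling macrophages of MI and of sham differed in macrophage state. Of 2865 measured genes, 8.13% were higher (233 genes) and 5.83% lower (167 genes) in MI than in sham cycling cells, and the median over all was 0.02. Among 0-UMI macrophages, where more genes were measured, 6.77% of 10429 were higher and 12.7% lower in MI. The 5 cycle genes that chose the members, whose summed level the limit of 3 UMIs holds up in both libraries, had log2 ratios of MI over sham from -0.24 for Mki67 to 0.34 for Birc5. Among the macrophage genes of the limits, Ctss was at 3869 CPM in MI and 1038 CPM in sham members, while C1qa was at 963 and 2481 CPM and C1qc at 1554 and 3247 CPM. These levels were shaped by the limits. The replication list had a median of -0.65, with 3 of 18 measured members lower, and the mitosis list of 0.05.

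Genes of lipid-associated macrophages, a state known from injured and fat-laden tissue, marked the MI members. Of 12 measured, 8 were higher and 1 lower in MI, and the median log2 ratio was 2.51. Spp1 (osteopontin), a secreted matrix protein, had 2389 CPM (2295 to 2485) and a UMI in 234 of 345 cycling cells of MI, and 0 UMIs in the 69 of sham, so its log2 ratio was at least 7.10 with 3 UMIs taken as the sham level. Among 0-UMI macrophages Spp1 was at 2012 CPM in MI and 5.93 CPM in sham, and the ratio of cycling over 0-UMI cells of MI was 0.25 (0.18 to 0.31). Spp1 was at 97.00 CPM in the lymphocyte-gated cells of MI, and at 500 UMIs it was found in 7.04% of those cells and in 40.6% of the MI members. Fabp5, a fatty acid-binding protein, was at 602 CPM in MI and 17.4 CPM in sham members, a log2 ratio of 5.11 (3.56 to 7.39). Lgals3 (galectin-3) was at 1182 against 145 CPM, and Trem2, a lipid-sensing receptor, at 479 against 52.2 CPM. Gpnmb, a lysosomal glycoprotein, had 247 CPM in MI and 0 UMIs in sham members, and Arg1, which breaks down arginine, 159 CPM and 0 UMIs. Fabp4 was the exception, at 107 CPM in MI against 835 CPM in sham members. Endothelial cells of heart capillaries also express Fabp4. Among 0-UMI macrophages Gpnmb was at 259 CPM in MI and 1.27 CPM in sham, and Arg1 at 275 CPM and 0 UMIs. A Fabp5 UMI was present in 31.6% of the 0-UMI cells of MI and 5.77% of those of sham. For Lgals3 the shares were 63.7% and 14.7%. The contrasts of Spp1, Gpnmb, Arg1, Fabp5 and Lgals3 were thus not particular to cycling cells.

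Lysosomal proteases and membrane proteins had 5 of 14 measured members higher in the MI than in the sham cycling cells. Ctsl (cathepsin L) was at 1333 against 139 CPM, a log2 ratio of 3.26 (2.68 to 3.91). Ctsd (cathepsin D) was at 1969.8 against 289.9 CPM. Mmp14, a membrane-bound collagenase, was at 204 against 5.80 CPM, and H19, an imprinted noncoding RNA, had 130.3 CPM against 0 UMIs. In the lymphocyte-gated cells of MI, Mmp14 was at 141 CPM and H19 at 26.5 CPM. The collagens of the limits summed to 1234 CPM in MI and 116 CPM in sham members, and the part of fibroblast RNA in the Mmp14 and H19 values was not tested. Rgs1, which dampens chemokine receptor signalling, was at 389.9 against 17.4 CPM.

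Resident macrophage genes marked the sham members. Of 10 measured, 6 were lower in MI, and the median log2 ratio was -1.52. Lyve1, a hyaluronan receptor of resident macrophages, had 67.1 CPM (52.2 to 84.9) in the MI members against 730.5 CPM (609 to 869.7) in the sham members, and had a UMI in 20 of 345 and 29 of 69. Cbr2, a carbonyl reductase, was at 55.4 against 707 CPM, Cd163, the haemoglobin scavenger receptor, at 53.5 against 864 CPM, and Folr2, a folate receptor, at 43.8 against 325 CPM. Mgl2, a lectin, had 0 UMIs in the 345 MI members and 481 CPM in the sham members, in 41 of 69 cells. Its log2 ratio was at or below -7.37, with 3 UMIs taken as the MI level. In the lymphocyte-gated cells of sham Mgl2 was at 30.1 CPM and Lyve1 at 15.1 CPM. Mrc1, the mannose receptor, differed less, at 1053 against 1652 CPM, and had a UMI in 255 of 345 MI and 62 of 69 sham members. The 0-UMI macrophages showed the same order, with Lyve1 at 49.1 CPM in MI and 1365 CPM in sham.

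MHC class II genes were lower in the MI than in the sham members for 5 of 5 measured genes, with a median log2 ratio of -1.32. Cd74 was at 488 CPM in MI and 2841 CPM in sham members. Ccr2, the chemokine receptor that brings monocytes into tissue, was at 716 CPM in MI and 330.5 CPM in sham members, in 147 of 345 and 12 of 69 cells. A Ccr2 UMI was present in 46.4% of the 0-UMI macrophages of MI and 12.0% of those of sham. The Ccr2 contrast was thus not particular to cycling cells. Ly6c2, a marker of newly arrived monocytes, ran the other way, at 4.86 CPM in MI and 52.2 CPM in sham members, on 5 and 9 UMIs in 5 of 345 and 7 of 69 cells. In 0-UMI macrophages it was at 20.4 CPM in MI and 75.8 CPM in sham. Interferon response genes summed to 1275 CPM in MI and 2963 CPM in sham members. Ifi27l2a made up most of that sum, at 789 against 2476 CPM.

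**Figure D4:**
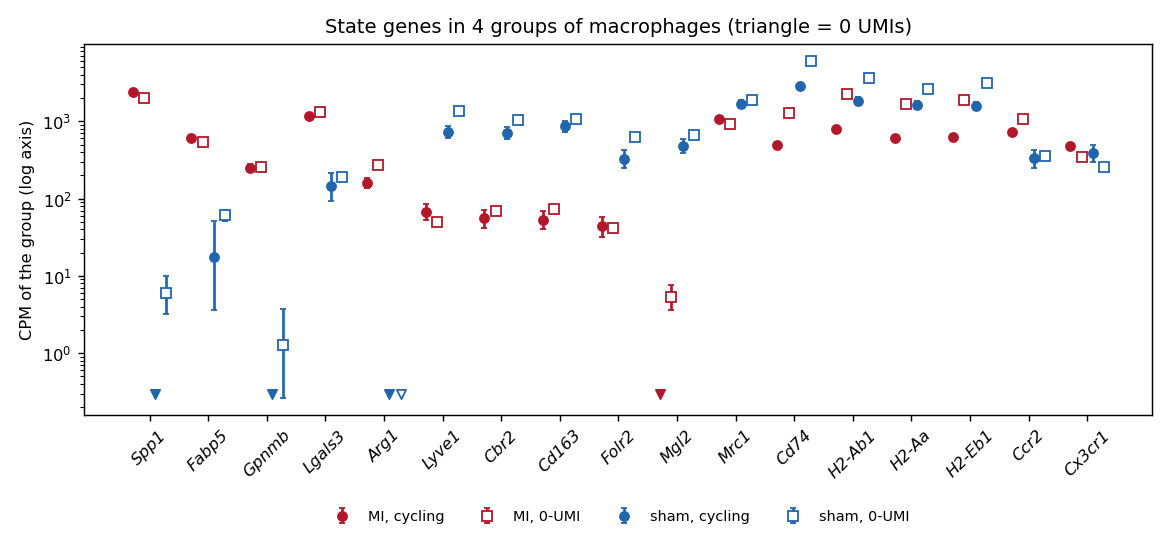
CPM (log axis) of macrophage state genes in cycling (filled circles) and 0-UMI (open squares) macrophages of MI (red) and sham (blue), with exact Poisson 95% intervals and a triangle where a group had 0 UMIs. Lyve1 is at 67.1 and 49.1 CPM in cycling and 0-UMI cells of MI and at 730.5 and 1365 CPM in those of sham.

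The share of cycling cells was then taken within states of each library, with state cuts made after the levels had been seen. Thinning to 500 UMIs was applied here to the cycle UMIs only, and states were called on the full counts. Where macrophages were ranked by their MHC class II share, 10.9% (9.48% to 12.5%) of MI macrophages with no such UMI cycled, against 10.1% (8.31% to 12.2%) of those up to 0.263% of UMIs and 4.57% (3.51% to 5.83%) of those above it. In sham the shares were 5.49% (3.74% to 7.75%) in the lower, 5.49% in the middle and 1.65% (0.756% to 3.11%) in the upper of 3 bands of 546 cells each. At 500 UMIs a cell, at least 1 cycle UMI was found in 13.5% of the lower and 7.94% of the upper band of MI, and in 6.23% and 3.85% of those of sham. The upper band was below the lower band in both libraries and at either depth, but at 500 UMIs the intervals of the sham bands overlapped, at 2.40% to 5.82% and 4.35% to 8.59%. Among cells of 1500 to 3000 UMIs the upper and lower bands were at 3.52% (2.19% to 5.34%) and 10.4% (8.29% to 12.8%) in MI and at 1.15% (0.140% to 4.09%) and 7.59% (4.48% to 11.9%) in sham. The bands differed in depth, with medians of 1645, 2027 and 1575 UMIs in MI.

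MI macrophages with a Spp1 UMI cycled in 10.9% (9.62% to 12.3%) and those without in 5.97% (4.93% to 7.14%), but the Spp1 cells were deeper, with a median of 1926 against 1507 UMIs. With cycle UMIs thinned to 500 UMIs a cell and Spp1 still called on the full counts, the shares with at least 1 cycle UMI were 12.96% and 9.84%. Among cells of 1500 to 3000 UMIs the shares that cycled were 8.09% (6.51% to 9.92%) with and 5.19% (3.75% to 6.98%) without Spp1, and these intervals overlapped. Splitting MI macrophages by a UMI of Gpnmb or Fabp5, also genes of lipid-associated macrophages, gave 9.10% (7.69% to 10.7%) with and 8.33% (7.28% to 9.47%) without. That order turned at 500 UMIs, with 10.9% and 11.9%, and among cells of 1500 to 3000 UMIs, with 5.65% (4.08% to 7.58%) and 7.62% (6.13% to 9.35%). For Ccr2 the MI shares were 8.07% (6.86% to 9.42%) with a UMI and 9.07% (7.89% to 10.3%) without, and these intervals overlapped. Macrophages with UMIs of at least 2 of the 6 genes Lyve1, Cbr2, Folr2, Cd163, Timd4 and Vsig4 cycled in 24 of 199 (12.1%, 7.88% to 17.4%) in MI and in 43 of 1087 (3.96%, 2.88% to 5.29%) in sham. The MI cells of this resident type were deeper, with a median of 2016 UMIs against 1489 in sham. Among those of 1500 to 3000 UMIs, 7.95% (3.26% to 15.7%) of the MI cells cycled, against 5.49% (3.59% to 8.00%) of the sham cells, and these intervals overlapped. At 500 UMIs, at least 1 cycle UMI was found in 15.6% (10.8% to 21.4%) of the resident-type cells of MI. In sham it was found in 5.34% (4.08% to 6.84%), and these intervals did not overlap. With none of the 6, 7.84% (6.94% to 8.81%) of MI macrophages cycled, against 5.86% (3.51% to 9.11%) of sham macrophages. Cells of this resident type were 6.96% of the cycling macrophages of MI and 62.3% of those of sham, and they were 4.69% of the 0-UMI macrophages of MI and 66.1% of those of sham.

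**Figure D5:**
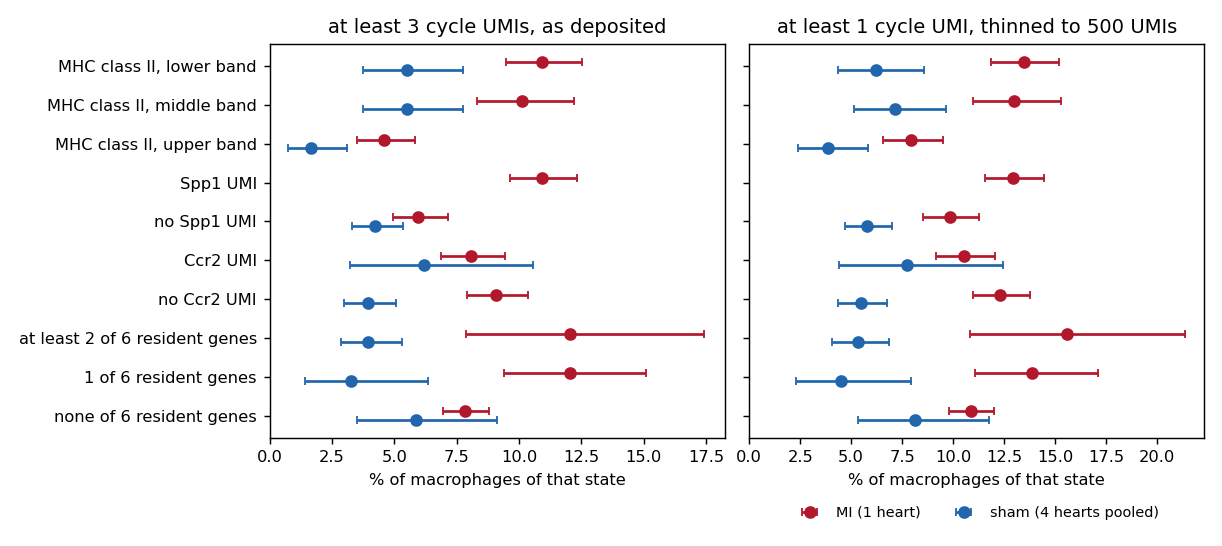
Share of macrophages of each state that cycle (percent, with exact 95% intervals) in MI (red) and sham (blue), states with fewer than 50 cells left off. Left, at least 3 cycle UMIs in the deposited counts. Right, at least 1 cycle UMI after thinning to 500 UMIs a cell, with states called on the full counts. The upper MHC class II band has the lowest share of the 3 bands, at 4.57% in MI and 1.65% in sham on the left.

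The genes on which these results turn lie, on GRCm38 in the GENCODE annotation, at chr7:135689784-135716361 on the minus strand (Mki67), chr11:98992943-99024189 on the minus strand (Top2a), chr2:119618298-119651244 on the plus strand (Nusap1), chr13:21833026-21833507 on the minus strand (Hist1h2ap), chr4:134468320-134473843 on the plus strand (Stmn1), chr17:29090976-29100727 on the plus strand (Cdkn1a), chr17:34257689-34269419 on the plus strand (H2-Ab1), chr5:104435118-104441050 on the plus strand (Spp1), chr7:110850607-110863239 on the minus strand (Lyve1) and chr11:70130329-70137550 on the plus strand (Mgl2). All are protein-coding genes.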

How the data were processed

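Single-cell RNA counts came from 2 Drop-seq libraries of mouse heart. The authors deposited a table of whole-number UMI counts per gene and cell for each library, and every value was tested to be a whole number. Genome build mm10 and the tool Seurat are named per the submitters' processing notes, with no role given; aligner, counter and cell filter are not stated there. Per the labels' protocols the hearts were perfused and then fixed in paraformaldehyde, with no word on how cells were released. The tables held 8555 barcodes in MI and 6337 in sham, with medians of 2466 and 1424 UMIs and a minimum of 500 genes a cell. The members and the gene lists were chosen with earlier results of these data known. Cells were gated as in the report; cells over 25% mitochondrial UMIs were left out. UMIs of the 21745 genes listed in both tables were summed over the cells of a group and given as CPM with exact Poisson 95% intervals. Ratios carry exact conditional binomial intervals, shares exact Clopper-Pearson intervals. A gene was measured when at least 10 UMIs were expected in each group, and named when its interval bound nearest to no change ranked among the 12 highest or 12 lowest past 2-fold, or among the 3 largest of a list; further list members are given for their known role, chosen after their values were seen. Where a group had 0 UMIs, 3 UMIs over the group were taken as its level. Thinning drew 500 or 1000 UMIs a cell without replacement. Doublets were marked with scrublet (in scanpy 1.11.5), per library, and stayed in unless said. The ratio step was tested on simulated data. Python 3.11.15, numpy 2.4.6, scipy 1.17.1 and pandas 2.3.3 were used. Motifs were searched on both strands in RefSeq promoter sequences of GRCm38.p6, matched by symbol. Alternatives were other cycle minimums, gates, limits, scaling, filters, depth windows and equal weight for every cell.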

Additional observations from a re-analysis of the deposited data

Results flagged for a closer look

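Cycling and 0-UMI macrophages stood in opposite order in the 2 libraries, with intervals on opposite sides of 0, for 2 of 30 gene lists and for 11 of 178 listed or named genes measured in both. With 1 library a condition these differences between the libraries were not tested. The summed level of CDK inhibitors and p53 targets gave a log2 ratio of -0.46 in MI and 0.31 in sham. That of inflammatory monocyte genes was -0.30 in MI and 0.38 in sham. In sham S100a4 made 545 of the 1032 CPM of the monocyte list in the members, and was at 229.6 CPM in 0-UMI cells. Cdkn1a made 609 of the 1577 CPM of the CDK inhibitor list in the sham members, and was at 282 CPM in 0-UMI cells. The order of each sham sum rested on that gene.

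Of the cycle regulators, Ccnd1 had a log2 ratio of 0.48 in MI and -0.80 in sham, and Cdkn1a -0.35 and 1.11. Of the resident macrophage genes, Lyve1 had 0.45 in MI and -0.90 in sham, and Pf4, a platelet-type chemokine, 0.39 and -0.24. Of the chemokines, Ccl4 had -0.52 in MI and 0.97 in sham, Ccl7 0.47 and -0.77, and Ccl12 0.44 and -1.05. Pecam1 had 1.38 in MI and -1.83 in sham, and Ablim1, an actin-binding protein, 1.06 and -1.95.

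Tm4sf1, a tetraspanin-like membrane protein, had a log2 ratio of 0.93 in MI. In sham it had 0 UMIs in the 69 members, so that the value there was at or below -2.40. In MI 60 of the 176 UMIs of the members lay in 1 cell. Gsn had 0.30 in MI and -1.63 in sham, and without scrublet doublets the sham value was 0.22 (-0.24 to 0.65), no longer opposite to MI.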

How the results depend on the processing

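The log2 ratio of the cycling share, MI over sham, stayed above 0 with its interval under all 10 alternatives, from 0.89 without scrublet doublets to 1.28 without barcodes ending in an undetermined base. Without any filter beyond 1 UMI in each group, the genes past 2-fold numbered 1940 higher and 951 lower in cycling cells of MI, 2015 higher and 1119 lower in those of sham, and 967 higher and 2241 lower in MI than in sham members. Leaving out barcodes ending in an undetermined base gave 84 higher in sham members, and 99 lower in MI than in sham members. Of the other counts and shares, 72 stayed within 1.5 times the reported count, or within the interval of the share. Of list medians 662 stayed and 106 moved, and 1 past 2-fold changed sign; of named genes 782 stayed, 56 moved and 2 changed sign. These 3 were in sham without scrublet doublets, namely the median of fibroblast markers at 0.38, Gsn at 0.22 and Dcn at 0.74. Medians under 2-fold lay on the other side of 0 in a further 33 cases (22 of the moved and 11 of those that stayed), among them the sham medians of CDK inhibitors in 8 of 12 alternatives and of inflammatory monocyte genes in 7 of 12. The causes were not tested. No paired analysis was possible because each condition has 1 library. The 69 sham members, and a filter on the share pooled with the larger 0-UMI group, limit what sham can show. Of 48 mitosis genes, 5 were measured there and 42 in MI.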
